A study of Mus musculus with 4 samples.

Results

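The genes described here are transcription factors that the rule placed under lens fiber differentiation. The rule named 7 of them, Prox1, Maf, Mafg, Sox1, Hsf4, Gata3 and Hmx1, and took the rows of the deposited table that carried those symbols. Of the 7, 6 had values, out of 10790 genes with values in all, and the RNA level of Sox1 was not analysed here. All 6 passed the filter on low values and were tested. The rule used no measured value, but the factors were proposed with earlier results of these data known.

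RNA came from whole lenses of mice at postnatal day 4. The 2 groups were Tdrd7 -/- mice, called Tdrd7 null here, and wild type control mice. Each had 2 libraries, and every library held the RNA of a pool of 15 lenses (control pools and null pools). For the allele, strain and sex of the mice, and for litters shared between pools, the sources used here give nothing, so p-values measure the spread between pools only. Loss of TDRD7, a component of cytoplasmic RNA granules with Tudor domains, causes cataract.

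The vertebrate lens holds an anterior epithelium, whose cells divide, and a mass of fiber cells, which leave the cell cycle, elongate, fill with crystallins and lose their organelles. Maf and Prox1 are needed for fiber elongation and activate crystallin genes. Hsf4 and Sox1 act later, on the gamma crystallins and on other genes of maturing fibers, and Gata3 is needed for cell cycle exit. Mafg is a small Maf protein, which has a DNA-binding and pairing region but no activation domain of its own. Hmx1 is a homeodomain factor known mainly for the development of the eye and the outer ear.

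Values are scaled reads, that is, the number of reads of a gene divided by a single factor for its library, with no correction for gene length. Depth was high, with 33920522 to 42767535 reads per library in the listed genes. Tdrd7, the targeted gene, stood at 1188 and 972 scaled reads in the control pools and at 165 and 96.6 in the null pools, so the target was low in both libraries labelled null. All 10 lens fiber markers (crystallins, Mip, Lim2, connexins and beaded filament genes) and all 9 lens epithelium markers had values. The summed level of the fiber markers was 298202 and 304761 in the control pools and 310824 and 274352 in the null pools. That of the epithelium markers was 1461 and 1454 against 1500 in both null pools. In such bulk RNA, fewer cells of a type and less RNA per cell cannot be told apart.

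Hmx1 and Hsf4 fell in the lenses of Tdrd7 null mice, with changes in the mean of -29.2% and -17.2%, and Maf, Mafg, Prox1 and Gata3 did not pass the test. The threshold was a limma adjusted p under 0.05, which 18.0% of the 10696 tested genes passed (10.1% higher and 7.88% lower in the null pools). Of the 6 factors 0 were called higher and 2 lower (33.3%), a median log2 fold change of -0.05 against -0.005 over all tested genes. Both calls were of factors with GC-rich transcripts, and with the trend on transcript GC content and length removed 0 of the 6 were called by limma, though Maf and Hmx1 had an unadjusted p of 0.00871 and 0.00245. Over all genes that correction left 3.29% called, 2.06% higher and 1.24% lower.

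**Figure D1:**
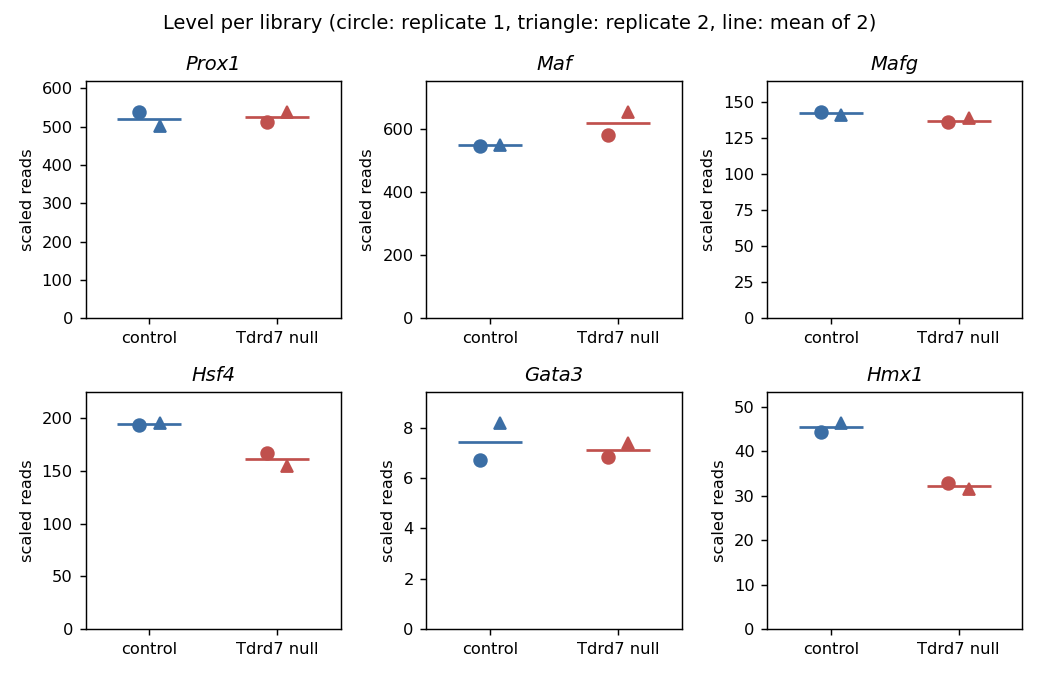
Scaled reads of each factor (vertical axes, from 0) in the 2 control and 2 Tdrd7 null libraries, with replicate 1 as a circle, replicate 2 as a triangle and the mean of 2 as a line. Hmx1 and Hsf4 are lower in both Tdrd7 null libraries than in either control library, while the groups overlap for Prox1 and Gata3.

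Compared per kilobase of merged exon, so that genes of unequal length can be set side by side, Hsf4 had the highest mean over the 4 libraries, at 102 scaled reads per kb ± 11.4 (SD, n = 4). It was followed by Maf at 70.8 ± 6.07, Prox1 at 62.3 ± 2.23, Mafg at 24.8 ± 0.524 and Hmx1 at 24.5 ± 4.87. Gata3 was the lowest, at 1.83 ± 0.17. The ranges over the 4 libraries did not overlap between Hsf4 and Maf, Maf and Prox1, Prox1 and Mafg, or Hmx1 and Gata3. Over the 4 libraries Mafg (24.2 to 25.4) lay inside the range of Hmx1 (19.8 to 29.3), but their order differed by genotype. Hmx1 stood above Mafg in the control pools (28 and 29.3 against 25.4 and 25.1). In the null pools Hmx1 stood below Mafg (20.8 and 19.8 against 24.2 and 24.7). These SDs and ranges take both genotypes together, so they include the difference between genotypes. The first 5 of these factors stood above 93.6% or more of all genes with a length, and Gata3 above 41.8%. Small differences in this order depend on the length taken for each gene. With the longest transcript in place of merged exons, Maf came to 91.7 and Hsf4 to 102.

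**Figure D2:**
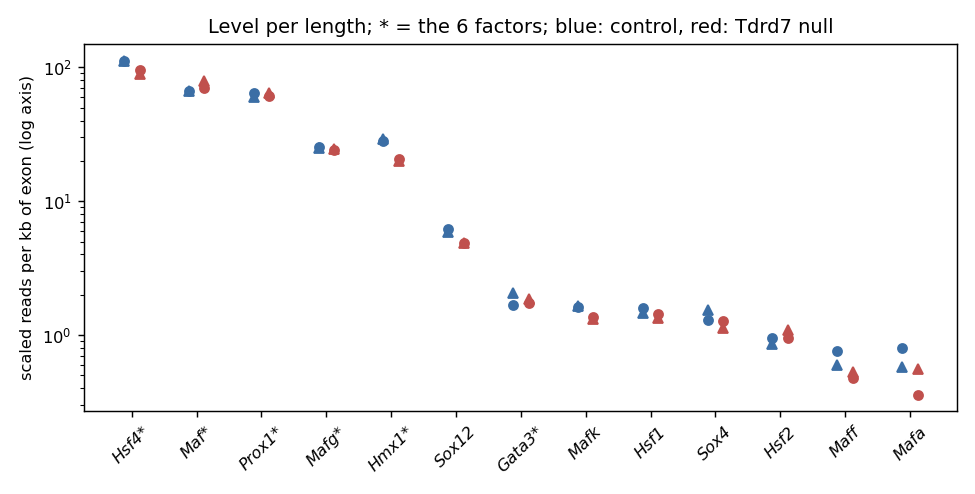
Scaled reads per kb of merged exon on a log axis for the 6 factors (marked with an asterisk) and 7 relatives from the same families, in control (blue) and Tdrd7 null (red) libraries. The relatives reach at most 6.16 scaled reads per kb, under Hsf4, Maf, Prox1, Mafg and Hmx1.

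Maf encodes the large Maf protein of the lens, a basic leucine zipper activator of crystallin genes (ENSMUSG00000055435, chromosome 8 from 115682942 to 115707794 on the minus strand, GRCm38). It stood at 546 and 550 scaled reads in the control pools and at 582 and 654 in the null pools. Both Tdrd7 null libraries were above both controls, but they lay further apart than the controls did. The means were 548 ± 2.75 and 618 ± 50.9 (SD, n = 2). On the log2 scale the difference was 0.17 (SE 0.0623, 95% interval 0.04 to 0.31). The unadjusted limma p was 0.0168 and the adjusted p 0.0746, so Maf was not called. Without Tdrd7 null replicate 1 the log2 fold change was 0.25 and Maf was called (limma adjusted p = 0.00858), and without Tdrd7 null replicate 2 it was 0.09 (adjusted p = 0.425). The value was the same 0.17 with the GC and length trend removed (adjusted p = 0.114). Maf shares 440 nt of exon with Gm15655, an antisense gene, and the libraries carried no strand, so reads of the 2 genes cannot be told apart there.

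Prox1, a homeodomain factor of fiber elongation that also acts in the lymphatic vessels (ENSMUSG00000010175, chromosome 1 from 190118038 to 190170680, minus strand), did not pass the test. It stood at 538 and 501 scaled reads in the control pools and at 513 and 538 in the null pools, and the groups overlapped. Null minus control was 0.02 on the log2 scale (SE 0.0577), with a 95% interval from -0.11 to 0.14 and a limma adjusted p of 0.859. The sign of so small a value changed with the scaling, to -0.02 with totals taken without the crystallins. The replicates differed by more than counting error. In control the exact 95% Poisson intervals were 530 to 545 and 494 to 508 scaled reads. Such intervals cover counting error only, because reads amplified by PCR are not independent molecules. Prox1 shares 133 nt of exon with the antisense gene Prox1os.

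Mafg, the small Maf protein (ENSMUSG00000051510, chromosome 11 from 120625117 to 120633600, minus strand), stood at 143 and 141 scaled reads in the control pools and at 136 and 139 in the null pools. The groups did not overlap, yet the gap between them was about as small as that between the replicates. The log2 fold change was -0.05 (SE 0.0508, 95% interval -0.16 to 0.06, limma adjusted p = 0.561). With the GC and length trend removed the value turned to 0.10 and did not pass (adjusted p = 0.28). Mafg shares 124 nt of exon with Sirt7 on the same strand, so its value is uncertain to that extent.

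The heat shock factor Hsf4, which is mutated in inherited cataract (ENSMUSG00000033249, chromosome 8 from 105269801 to 105275845, plus strand), fell in the null pools. It stood at 194 and 196 scaled reads in the control pools and at 167 and 155 in the null pools, that is, 195 ± 1.22 against 161 ± 8.74 (SD, n = 2). Both Tdrd7 null libraries lay below both controls, and the gap between groups was larger than that within either group. This separation adds nothing to the limma call. The log2 fold change was -0.27 (SE 0.0546, 95% interval -0.39 to -0.15, limma adjusted p = 0.00623). The call was lost without control replicate 1 (-0.28, adjusted p = 0.0557) and without control replicate 2 (-0.27, adjusted p = 0.0586), at about the same size. It was also lost with the GC and length trend removed, at -0.08 (95% interval -0.18 to 0.02, adjusted p = 0.373). No other annotated gene shared exonic sequence with Hsf4.

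Gata3, a zinc finger factor of cell cycle exit in fibers and also the leading regulator of helper T cells (ENSMUSG00000015619, chromosome 2 from 9857078 to 9890034, minus strand), was the least abundant. It stood at 6.71 and 8.21 scaled reads in the control pools and at 6.86 and 7.41 in the null pools, from 258 to 347 reads per library. Both Tdrd7 null values lay between the control values. The log2 fold change was -0.05 (SE 0.102), with a limma adjusted p of 0.762, and its 95% interval, from -0.27 to 0.17, was the widest of the 6. The values do not exclude a difference inside that interval. None of the 9 T cell and leukocyte markers had a value. Gata3 shares 155 nt of exon with the antisense gene Gm13256 and 77 nt with 9230102O04Rik on the same strand.

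Hmx1 (ENSMUSG00000067438, chromosome 5 from 35388858 to 35399730, plus strand) had the largest difference of the 6. It reached 44.5 and 46.5 scaled reads in the control pools and 33 and 31.5 in the null pools, from 1117 to 1967 reads per library. The groups were far apart compared with the spread within them, at 45.5 ± 1.45 against 32.2 ± 1.09 (SD, n = 2). Hmx1 fell by 0.49 on the log2 scale (SE 0.0601, 95% interval for the log2 fold change -0.62 to -0.36, limma adjusted p = 0.000632). The call held with either library of either genotype left out, at -0.45 to -0.52. It was lost with the GC and length trend removed, where the log2 fold change was -0.20 (95% interval -0.31 to -0.08, limma adjusted p = 0.0602), and with a prior that ignores intensity (-0.49, adjusted p = 0.051). Hmx1 shares 175 nt of exon with 4930442P19Rik on the opposite strand.

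**Figure D3:**
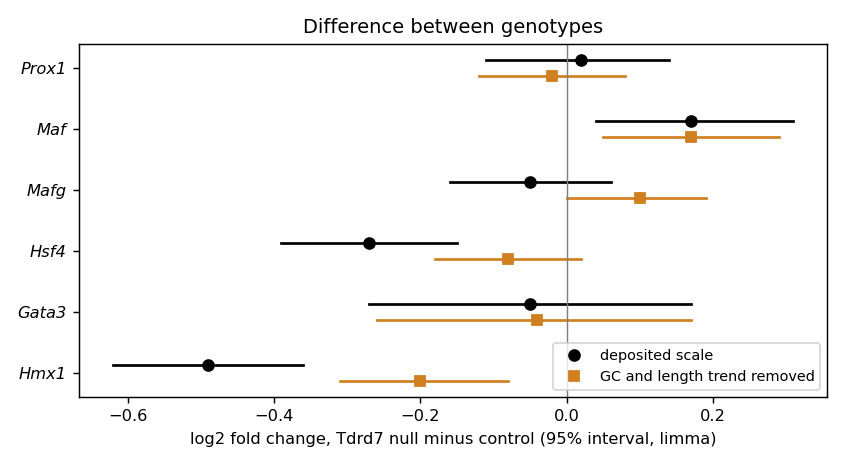
Log2 fold change of each factor, Tdrd7 null minus control, with its 95% interval from limma, on the deposited scale (black circles) and with the GC and length trend removed (orange squares). Hmx1 moves from -0.49 to -0.20 and Hsf4 from -0.27 to -0.08, while Maf stays at 0.17.

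The base composition of the transcripts separated the factors. The longest transcript of Hmx1 was 68.6% G or C, higher than in 99.9% of tested genes, and that of Hsf4 was 61.5%, higher than in 98.3%. Mafg was at 54.9%, Gata3 at 49.7%, Maf at 47.4% and Prox1 at 45.3%. Over all tested genes the median log2 fold change went from 0.22 under 40% GC to -0.31 at 64% and above. Among the 472 tested genes within 2 percentage points of Hsf4 the median log2 fold change was -0.20, and 34.3% were called lower. Hsf4, at -0.27, was below that median but 27.8% of those genes were lower still. Within 2 points of Hmx1 there were only 17 genes, Hmx1 itself included, with a median of -0.36 and 58.8% called lower. Hmx1 was lower than most of them, with 11.8% below it. The windows of the other factors likewise include the factor itself. Maf lay on the other side of its neighbours, at 0.17 against a median of 0.03 over 2271 genes, of which 83.4% were lower. Mafg and Prox1 stood at -0.05 and 0.02 against medians of -0.11 and 0.08. The part of GC content in the calls of Hmx1 and Hsf4 was not tested beyond this correction.

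**Figure D4:**
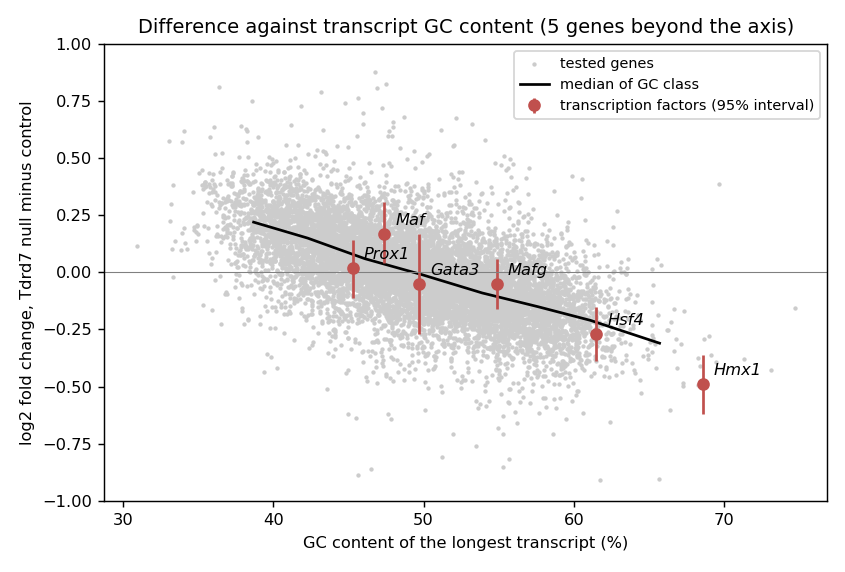
Log2 fold change of every tested gene (grey) against the GC content of its longest transcript in percent, with the median of each GC class (black line) and the 6 factors with 95% intervals (red). The line falls from 0.22 to -0.31, with Hsf4 and Hmx1 at its GC-rich end and Maf above it. The title gives the number of genes beyond the vertical axis.

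Promoter sequences could be compared for some of the factors. The RefSeq promoter table (GRCm38.p6) held starts of Prox1, Gata3, Hmx1, Sox1 and Mafg among the factors, and Maf and Hsf4 were not matched. In the 250 bases before the start, Hmx1 was 75.6% G or C, above 96.4% of all 32851 starts, against a median of 52.4% over all of them. Sox1 was at 71.2%, Gata3 at 70.0%, Mafg at 68.0% and Prox1 at 64.8% before its first listed start. The Hmx1 promoter is shown because Hmx1 had the largest difference, and that of Prox1 because it had the smallest difference. Capitals mark GGGCGG, the GC box, on either strand (as CCGCCC on the other strand), with overlapping copies run together.
Hmx1, chr5:35388611-35388860, plus strand: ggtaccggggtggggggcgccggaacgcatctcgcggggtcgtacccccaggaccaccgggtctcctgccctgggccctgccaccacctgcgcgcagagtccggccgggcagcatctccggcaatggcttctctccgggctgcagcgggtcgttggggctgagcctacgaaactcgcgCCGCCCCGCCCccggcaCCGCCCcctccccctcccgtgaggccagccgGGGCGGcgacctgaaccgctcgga
Prox1, chr1:190170828-190171077, minus strand: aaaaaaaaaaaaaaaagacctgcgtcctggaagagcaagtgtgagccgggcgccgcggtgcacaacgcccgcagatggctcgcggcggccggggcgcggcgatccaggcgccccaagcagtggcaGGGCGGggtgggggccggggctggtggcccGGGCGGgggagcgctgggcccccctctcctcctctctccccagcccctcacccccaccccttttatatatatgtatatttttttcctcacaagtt
The Hmx1 window held 4 GC boxes and the Prox1 window 2, and 32.7% of all windows of this length held at least 1. A match of letters is no evidence of binding.

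The other family members examined were far less abundant per kb than all of the factors but Gata3. Of 7 relatives with values (of 20 listed), 1 fell and 0 rose (14.3%, against 18% of all tested genes called). Their median log2 fold change was -0.24 and their median GC content 56.2%. Sox12, an HMG-box factor of the SoxC group, fell from 26.8 ± 0.946 to 21.7 ± 0.0591 scaled reads (SD, n = 2, log2 fold change -0.29, limma adjusted p = 0.00984). With the GC and length trend removed it stood at -0.06 and was not called, and without control replicate 1 the call was lost as well (-0.26, limma adjusted p = 0.0947). Without Tdrd7 null replicate 2 the relatives called lower numbered 2. Mafa, a large Maf, and Sox4, chosen after their values were seen, stood at -0.36 and -0.21 and did not pass. The small Maf genes Mafk and Maff, chosen after their values were seen, stood at -0.24 and -0.26 and did not pass. Hsf1, the general heat stress factor, stood at 11.4 and 10.4 scaled reads in the control pools and at 10.2 and 9.57 in the null pools, and Hsf2 at 9.21 and 8.21 against 9.12 and 10.6. Neither passed, and both were chosen after their values were seen.

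Hsf4 and Mafg held most of the RNA of the heat shock factors and of the small Maf genes. Per length, Hsf4 took 97.7% and 98.0% of the reads of Hsf1, Hsf2 and Hsf4 together in the control pools and 97.6% and 97.3% in the null pools. Mafg took 91.4% and 91.7% of the reads of Mafg, Mafk and Maff in the control pools and 92.9% and 93.0% in the null pools. For both shares the genotypes did not overlap, and the two-sided exact permutation p was 0.3333, which is as small as 2 libraries against 2 can give. The 6 factors together took 0.148% and 0.143% of all scaled reads in the control pools and 0.138% and 0.16% in the null pools, with overlapping groups (exact permutation p = 1, two-sided). That share differed by 0.00351 percentage points, and by -0.00718 without Tdrd7 null replicate 2.

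Small Maf proteins bind DNA in pairs with proteins of the CNC family, such as NRF2 (Nfe2l2) and BACH1, at antioxidant response elements. Of 5 partner genes with values 0 passed limma (2 at an unadjusted p under 0.05), at a median log2 fold change of -0.12. Nfe2l1, the most abundant, stood at 138 and 139 scaled reads in the control pools and at 131 and 124 in the null pools (log2 fold change -0.12, limma adjusted p = 0.138, and 0.01 with the GC and length trend removed). Bach2 stood at 42.2 and 38.0 against 38.3 and 45.2 (0.05, adjusted p = 0.67), with overlapping groups. Of 13 antioxidant response genes 2 rose and 1 fell (23.1%, against 18% of all tested genes called), at a median of 0.06. The peroxiredoxin Prdx1 was at 198 and 212 scaled reads in the control pools and at 286 and 302 in the null pools, well apart (log2 fold change 0.52, limma adjusted p = 0.00031). The cystine transporter Slc7a11 rose from 52.2 ± 4.27 to 68.1 ± 7.15 (SD, n = 2, 0.38, adjusted p = 0.00611). Fth1, the heavy chain of the iron store ferritin, fell from 266 ± 4.43 to 224 ± 19.8 (-0.25, adjusted p = 0.0158). All 3 kept their calls with the GC and length trend removed, at 0.35, 0.24 and -0.27. Prdx1 also kept its call with any 1 library left out. Slc7a11 lost its call without control replicate 2 (0.29, limma adjusted p = 0.0817). Fth1 lost it without control replicate 1 (-0.27, limma adjusted p = 0.0833), control replicate 2 (-0.23, adjusted p = 0.116) or Tdrd7 null replicate 2 (-0.16, adjusted p = 0.118).

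Crystallin genes, the main products that Maf, Prox1, Sox1 and Hsf4 serve, were not called. Of the 16 crystallin genes 0 passed limma after adjustment and 0 had an unadjusted p under 0.05, with log2 fold changes from -0.16 to 0.12 and a median of -0.06. Cryaa, the most abundant, was at 141896 and 141976 scaled reads in the control pools and at 141600 and 125016 in the null pools, so that 1 null pool made most of the difference (log2 fold change -0.09, 95% interval -0.54 to 0.35, limma adjusted p = 0.789). Cryge was at 60208 and 60600 against 63569 and 51797 (-0.07, adjusted p = 0.792), and as a gamma crystallin with near-identical copies it is uncertain. The intervals of Cryaa and Cryge include a fall of the size seen for Hsf4, while those of Crygn (-0.07 to 0.25) and Cryba2 (-0.19 to 0.26), chosen after their values were seen, do not. Without Tdrd7 null replicate 1, 2 crystallin genes, Crygc and Crybb2, were called lower. The Cryaa promoter is shown because Maf proteins are known to act on it. Capitals mark TGCTGA, the core of the element that Maf proteins bind, on either strand.
Cryaa, chr17:31677681-31677930, plus strand: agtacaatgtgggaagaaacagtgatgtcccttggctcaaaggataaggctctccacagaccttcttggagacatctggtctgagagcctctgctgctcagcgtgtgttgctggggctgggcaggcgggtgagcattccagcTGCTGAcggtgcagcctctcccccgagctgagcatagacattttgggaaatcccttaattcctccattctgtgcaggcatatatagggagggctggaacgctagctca
The capitals start 108 bases before the start of the gene. Of 15 crystallin genes with a promoter 10 held TGCTGA on either strand in their first listed window (66.7%), against 16.1% of all 32851 windows, and of the 5 factors with a promoter only Gata3 did.

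Genes linked to heat shock factors moved in both directions while Hsf4 was lower. Of 16 with values 6 rose and 1 fell (43.8%, against 18% of all tested genes called), at a median log2 fold change of 0.12. Hspb1, a small heat shock protein, fell from 218 and 280 scaled reads in the control pools to 157 and 110 in the null pools. Its log2 fold change was -0.91 (limma adjusted p = 0.00149). Dnaja1, a partner of Hsp70, rose from 115 ± 0.149 to 145 ± 3.39 (SD, n = 2, 0.34, adjusted p = 0.00187). It shares 608 nt of exon with Smu1 and 249 nt with Gm6297 on the opposite strand, and 74 nt with Mir207 on the same strand. The value of Dnaja1 is uncertain to that extent. The cytosolic chaperones Hsp90aa1 and Hspa4 rose by 0.21 and 0.19 (adjusted p = 0.016 and 0.0219). With the GC and length trend removed 1 rose and 1 fell, namely Dnaja1 at 0.20 and Hspb1 at -0.77, while Hsp90aa1 and Hspa4 stood at 0.09 and 0.16 and did not pass. The 6 higher calls became 2 with either control library or Tdrd7 null replicate 2 left out. Dnaja1 and Hspb1 kept their calls with any 1 library left out, but Hspb1 lost its call with a robust prior (-0.91, limma adjusted p = 0.206). The Hspb1 promoter, chosen after the values were seen, is shown because Hsf4 and Hspb1 were both lower. Capitals mark GAANNTTC, a pair of inverted heat shock units, which reads the same on both strands.
Hspb1, chr5:135887669-135887918, plus strand: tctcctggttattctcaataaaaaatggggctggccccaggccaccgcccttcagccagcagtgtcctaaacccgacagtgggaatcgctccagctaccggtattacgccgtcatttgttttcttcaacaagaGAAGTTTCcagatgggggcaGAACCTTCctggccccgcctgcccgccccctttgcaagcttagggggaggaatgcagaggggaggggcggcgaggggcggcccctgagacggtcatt
It held 2 such pairs, starting 117 and 97 bases before the start of the gene. Of all windows of this length 6.7% held at least 1. The promoters of the 6 genes that rose were not examined, and a match of letters is no evidence of binding. An action of Hsf4 on Hspb1 was not tested.

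Genes of cell cycle exit and of FGF signalling, which are linked to Prox1 and Gata3, held calls of FGF signalling genes only. The cell cycle genes Cdkn1b, Cdkn1c, Cdkn2c, Ccnd1, Ccnd2 and Rb1 did not pass. With every library used all calls were lower in the null pools, but without Tdrd7 null replicate 1 calls went in both directions. Of 15 with values 0 rose and 3 fell (20%, against 18.0% of all tested genes called and 7.88% lower), at a median log2 fold change of 0.01. The FGF receptors Fgfr3 (291 and 273 scaled reads in the control pools, 253 and 242 in the null pools) and Fgfr1 (55.0 and 55.7 against 48.2 and 46.7) fell by 0.19 and 0.22 on the log2 scale (limma adjusted p = 0.032 and 0.0195). Spry1, an inhibitor of FGF signalling, fell by 0.31 (adjusted p = 0.0108). These 3 genes were named for passing limma, so the lack of overlap between their groups adds nothing to the calls. Fgfr3 shares 998 nt of exon, Spry1 710 nt and Fgfr1 164 nt with genes on the opposite strand. None of the 15 was called by limma with either control library or Tdrd7 null replicate 2 left out (0 in each case). With the GC and length trend removed 0 of the 15 were called, and these 3 stood at -0.03, -0.06 and -0.17.

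Genes of the differentiated fiber held calls in both directions. Of 19, all with values, 2 rose and 3 fell (26.3%, against 18% of all tested genes called), at a median of 0.01. Hopx, a small homeodomain protein that does not bind DNA, rose from 34.1 ± 2.48 to 47.7 ± 0.873 scaled reads (SD, n = 2, log2 fold change 0.48, limma adjusted p = 0.00106), and Caprin2, an RNA-binding protein of the lens, rose by 0.24 (adjusted p = 0.0197). Epha2, an ephrin receptor, fell by 0.36 on the log2 scale (limma adjusted p = 0.00407). Tmod1, which caps actin filaments, fell by 0.29 (adjusted p = 0.0227) and Lim2, a fiber membrane protein, by 0.25 (adjusted p = 0.0413). Tmod1 shares 1287 nt of exon with Tstd2 and Hopx 412 nt with Hopxos, both on the opposite strand. The libraries carried no strand, so reads of these pairs cannot be told apart there. With the GC and length trend removed only Hopx was called among the 18 with a GC value, at 0.35, and Lim2 could not be corrected because the annotation held no transcript under its identifier. Hopx kept its call with any 1 library left out. Epha2 lost its call without control replicate 1 (-0.27, limma adjusted p = 0.0581), and Caprin2, Tmod1 and Lim2 lost theirs without either control library or without Tdrd7 null replicate 2. In the last case Lim2 stood at -0.12 (limma adjusted p = 0.283), Tmod1 at -0.16 (adjusted p = 0.185) and Caprin2 at 0.20 (adjusted p = 0.0622), and without Tdrd7 null replicate 1 Lim2 stood at -0.39.

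**Figure D5:**
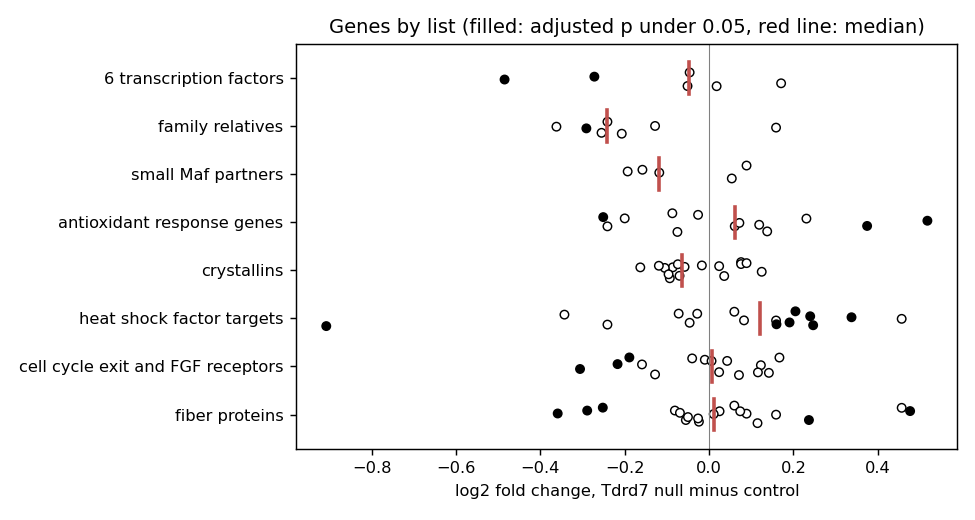
Log2 fold change, Tdrd7 null minus control, of each gene (points) of the 6 transcription factors and of 7 lists around them, with genes called at an adjusted p under 0.05 filled and the median of each list in red. The medians lie between -0.24 for the family relatives and 0.12 for the heat shock factor targets, and the called genes lie on both sides of 0.

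Hmx1 and Hsf4 were also set beside the genes whose values followed theirs most closely. Over the 4 libraries, and among the 5880 genes averaging 10 scaled reads or more, the closest to Hmx1 by root mean square distance of centred log2 values were Atn1, Ints3 and Nr2f6, at distances of 0.0248, 0.0252 and 0.0265. Their log2 fold changes were -0.45, -0.49 and -0.50, with transcript GC contents of 62.0%, 54.1% and 67.3%. Closest to Hsf4 were Pcnxl3, Med12 and Apbb1, at 0.0034, 0.008 and 0.0082, with log2 fold changes of -0.28, -0.29 and -0.27 and GC contents of 60.4%, 52.7% and 60.2%. The genes were picked by these distances, so fold changes near those of Hmx1 and Hsf4 follow from the choice. These distances are a description over only 4 libraries.

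Several of the factors are also known from other tissues, so markers of other cells were examined. None of the 9 retina, 9 T cell and leukocyte, 9 macrophage, 8 cornea and conjunctiva or 6 red blood cell markers had a value. Of 9 markers of neurons and neural progenitors 4 had values, and their sum was 32.8 and 34.4 scaled reads in the control pools and 42.5 and 44.3 in the null pools. Map2 (log2 fold change 0.36, limma adjusted p = 0.00453), Nes (0.35, adjusted p = 0.0171) and Elavl4 (0.48, adjusted p = 0.0217) rose, and Map2 and Nes kept their calls with the GC and length trend removed. The 3 calls became 0 without control replicate 1 and 1 (Map2) without control replicate 2 or Tdrd7 null replicate 2, where Nes stood at 0.39 and 0.23. Elavl4 had only 51 to 81 reads per library, and its value was 0.73 with a pseudocount of 0.1 and 0.19 with a pseudocount of 5. Endothelial markers, of which 7 of 10 had values, summed to 44.1 and 37.3 scaled reads in the control pools and to 40.5 and 47.5 in the null pools, and 0 passed limma (0 at an unadjusted p under 0.05). The most abundant were Pdpn (log2 fold change 0.09) and Tek (-0.05). For pericytes and fibroblasts 5 of 9 had values, with sums of 69.5 and 70.0 against 66.7 and 58.7. This list had a median log2 fold change of 0.06 and values up to 0.35. Within it Notch3 (-0.50) and Pdgfrb (-0.34) fell. With the GC and length trend removed neither was called (-0.25 and -0.19). Without control replicate 1 both calls were lost (-0.37 and -0.29), and Pdgfrb also lost its call without control replicate 2 (-0.38) or Tdrd7 null replicate 2 (-0.25). Pigment and ciliary epithelium markers, 3 of 8, summed to 17.2 and 18.2 against 19.9 and 18.5, and 0 passed limma (0 at an unadjusted p under 0.05). Mitf stood at 0.10 and Tyrp1 at 0.18. Among the 9 lens epithelium markers Gja1 rose (0.33) and Pitx3 (-0.38) and Foxe3 (-0.43) fell, and none of these 3 was called with the GC and length trend removed. Gja1 also lost its call without control replicate 1 (0.23, limma adjusted p = 0.0847). The part of these cells in the levels of the factors was not tested.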

How the data were processed

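The submitters' processing notes name mm10 (GRCm38) as the build and list TopHat2 2.0.9, Trimmomatic, Cuffnorm and Cufflinks, and the sources used here give no counting tool or scaling step. The deposited signal values lay within 0.002 reads of a whole multiple of 1 step per library (0.0237 to 0.0282), so they were scaled reads, and low genes are not in the table (every gene reached 1.02 or more in some library). Columns from other series numbered 0. Values were tested as log2(scaled reads + 1), which understates changes of low genes, over 10696 genes averaging 1 or more. limma 3.58.1 in R 4.3.3 was used with an intensity-dependent prior, two-sided, with Benjamini-Hochberg adjustment over all of them and a residual of 2 degrees of freedom plus 11.1 from the prior. The fit was also run on counts simulated with known folds and a spread fixed in advance, which gives no measure of its errors in these data. Exact permutation tests used SciPy 1.17.1. Transcript GC content and length were those of each gene's longest transcript, and merged exon lengths and overlaps from the exons, in GENCODE M21 (GRCm38). The GC and length correction subtracted each library's trend (natural splines, 5 degrees of freedom each) over 10656 genes. For a symbol with several rows, the row with the highest mean was used.

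Other settings were a pseudocount of 0.1 or 5, a minimum mean of 5 or none, 4 other scalings, 2 other priors, the replicate number as a block and each library left out. The planned count tests of whole-number reads were not run. The members and lists were chosen with earlier results of these data known. The rule for named genes took the 6 factors, Tdrd7, up to 4 called genes of each list by smallest p (otherwise the 2 most abundant), and the 3 genes nearest in pattern to the 2 factors with the largest differences. A further gene was left out of the list of family relatives and is not reported here.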

Additional observations from a re-analysis of the deposited data

How the results depend on the processing

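Of 17 alternatives, 15 called Hmx1 and 12 called Hsf4, and both kept their direction in all 17 (-0.52 to -0.20 and -0.33 to -0.08). The count of 2 called factors fell to 0 with a prior without the intensity trend, to 0 with the GC and length correction and to 1 (Hmx1, limma adjusted p = 0.0491) with that correction in a replicate block. Over all genes, 1920 calls became 16, 351 and 583 under these 3 settings. Leaving out 1 library gave 1 to 3 called factors and 431 to 2196 called genes. The split of calls was 1077 higher and 843 lower, but 869 and 1072 with upper quartile scaling and 766 and 1262 with totals taken without the crystallins. With the replicate block 2117 genes and the same 2 factors were called. Deviations of libraries with the same number correlated at -0.151, so a crossed replicate block was added after seeing the data, which called 3036 genes and 3 factors. The summed share of the factors changed sign without Tdrd7 null replicate 2 (-0.00718 percentage points, and 0.000565 to 0.0142 without any other library) and over a total without crystallins (-0.00429). The sign of Prox1 turned with upper quartile scaling (-0.01), totals without crystallins (-0.02), the GC and length correction with or without the block (-0.02), and without control replicate 2 (-0.03) or Tdrd7 null replicate 2 (-0.02). Mafg (0.10) and Nfe2l1 (0.01) turned with the correction, with or without the block. Without control replicate 2, Gata3 (0.08) and Bach2 (-0.02) turned, and without Tdrd7 null replicate 2, Bach2 (-0.06) and Cryge (0.07). Over the libraries left out, Gata3 ranged from -0.18 to 0.08, Bach2 from -0.06 to 0.17 and Cryge from -0.22 to 0.07. Apart from the GC correction, by construction a removal of that trend, the cause of each change was not tested. With the prior without the intensity trend, every called gene named here lost its call except Tdrd7 (limma adjusted p = 0.041). Tdrd7 lost its call with the robust prior, at an unchanged log2 fold change of -3.08 (limma adjusted p = 0.0555). The planned count tests of whole-number reads were not run.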
